A study of Homo sapiens with 7 samples.

Results

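THBD and CD93 are neighbouring genes on chromosome 20, and the region that holds both was examined for binding of the vitamin D receptor (VDR) in THP-1 cells, a monocyte-like human leukaemia line. All peaks that overlapped a window of 270 kb, chromosome 20 at 22900000 to 23170000 (hg19), were taken, which gave 14 peaks in 5 peak lists, of 85571 peaks in those lists and 89218 in all 6 lists of the series. Peaks were taken by position alone, whatever their values, but the window itself was chosen with earlier results of these data known. Cells had received 100 nM 1α,25-dihydroxyvitamin D3 (1,25D), the active hormone, or its solvent, 0.1% ethanol (EtOH), for 8 h. Each treatment had 3 libraries, made by ChIPmentation with an antibody against VDR: chromatin is immunoprecipitated and a transposase then inserts the adapters for sequencing. The input sample of the series was not used here. The list of 1,25D replicate 2 ended on chromosome 16 as used here, so the comparison was of 1,25D replicates 1 and 3 with EtOH replicates 1 to 3. All libraries came from the same cell line, and the labels do not say that replicates were separate cultures, so the spread between them may be technical.

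THBD encodes thrombomodulin, a cell-surface protein that binds thrombin and turns it from a clotting enzyme into an activator of the anticoagulant protein C. CD93 encodes a transmembrane glycoprotein of myeloid and endothelial cells, known for roles in cell adhesion and in the uptake of dying cells. Both belong to the same group of C-type lectin domain proteins. VDR binds DNA mostly as a partner of the retinoid X receptor, often far from promoters, and hormone binding changes the coregulators that it recruits. THBD is known as a vitamin D target gene of monocytic cells.

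THBD lies at 23026270 to 23030301 and CD93 at 23059986 to 23066977. Both genes are known to be read towards lower coordinates, which is background knowledge and not taken from the files, and every start and upstream distance given here rests on it. The upper end of each gene is then its start, and CD93 lies upstream of THBD with 29.7 kb between the gene bodies. In the order of genes in RefSeq (GRCh38.p14, used for order only), the next protein-coding gene on the THBD side is the somatostatin receptor gene SSTR4. On the CD93 side it is NXT1, which encodes a nuclear export factor. Noncoding genes, the first of them LINC00656, lie between CD93 and NXT1 in that order. Their positions relative to the peaks were not examined.

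After 1,25D, VDR peaks were found in 3 places upstream of CD93, each in both 1,25D lists, and none overlapped either gene. The strongest lay 40.4 kb upstream of the start of CD93, at 23107048 to 23107623, and the others lay 70.0 kb and 76.1 kb upstream, at 23136641 to 23137228 and at 23142976 to 23143249. Counted from the start of THBD the same sites lay 77.0, 106.6 and 112.8 kb upstream. EtOH libraries had a peak at the first of these in 1 of 3 lists and at the others in none.

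**Figure D1:**
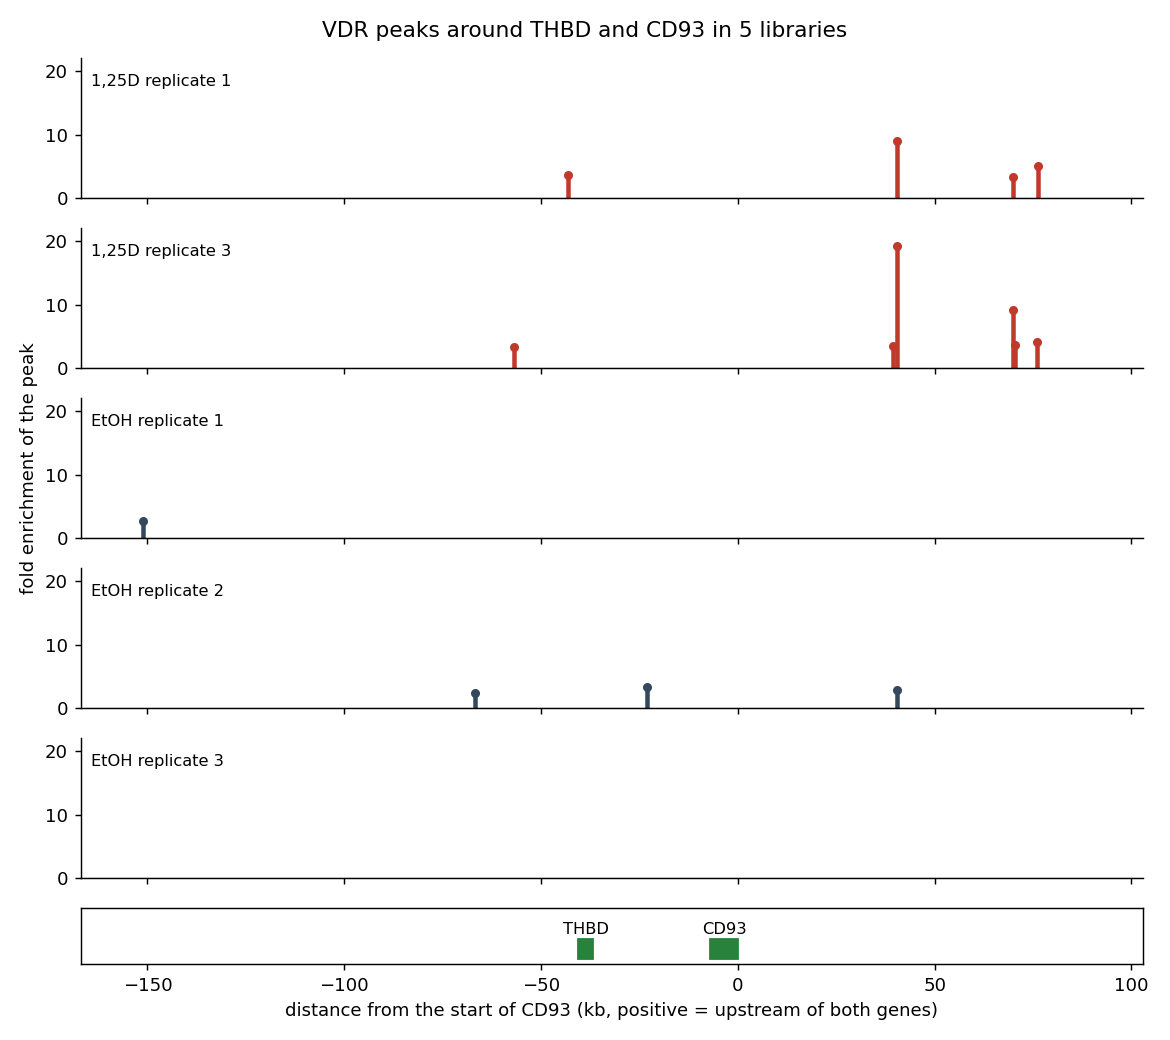
Every peak of the window in the 5 lists, plotted by its distance from the start of CD93 (x axis, kb) and its fold enrichment (y axis); the bottom row shows the gene bodies. Both 1,25D lists have peaks at 40.4, 70.0 and 76.1 kb, and the EtOH lists hold 1, 3 and 0 peaks, none with a fold above 3.30.

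The number of peaks in the window was 4 and 6 in 1,25D replicates 1 and 3. It was 1, 3 and 0 in EtOH replicates 1, 2 and 3. The treatments did not overlap, with means of 5 ± 1.41 (SD, n = 2) after 1,25D and 1.33 ± 1.53 (SD, n = 3) after EtOH, a difference of 3.67 peaks (two-sided exact permutation test, p = 0.2). The smallest p that 2 against 3 libraries allow is 0.1, so no difference here could pass 0.05. Of 7071 windows of the same length with a peak in any of the 5 lists, 4% likewise had more peaks in both 1,25D lists than in any EtOH list.

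The lists are sorted by chromosome name as text (1, 10 to 19, 2, 20 to 22, 3 and on). As used here, that of 1,25D replicate 3 ended on chromosome 5 at 90175161 and that of EtOH replicate 3 on chromosome 6. The part of the genome that all 5 lists cover is therefore chromosomes 1 to 4 and 10 to 22, with chromosome 5 up to that position, and the windows were laid over it.

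Peaks with a fold enrichment of 5 or more, where the fold is the authors' own value for a peak over the caller's background, were found only in the 1,25D lists, 2 in each and 0 in each EtOH list (exact permutation p = 0.1). Such a separation was seen in 8.7% of the windows of equal length. In 1,25D replicate 1 the peaks that reached 5 were at 40.4 and 76.1 kb. In 1,25D replicate 3 they were at 40.4 and 70.0 kb, so only the site at 40.4 kb reached 5 in both. The lists differed in size over the part of the genome that all 5 cover, from 8620 peaks in 1,25D replicate 3 to 21369 in EtOH replicate 2, and the share with a fold of 5 or more was 16.9% and 21.8% after 1,25D and between 2.78% and 5.63% after EtOH. With a fold of 10 or more, 1 peak was left, in 1,25D replicate 3.

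Near the genes themselves few peaks were listed in either treatment. From 10 kb below THBD to 10 kb above CD93, 1,25D replicate 1 had 1 peak and EtOH replicate 2 had 1 peak, and the difference in means was 0.167 (exact permutation p = 1). The peak of 1,25D replicate 1, at 23023804 to 23023951, lay 2.39 kb beyond the downstream end of THBD, with a fold of 3.66. The peak of EtOH replicate 2, at 23043902 to 23044050, lay between the genes, 13.7 kb upstream of the start of THBD, with a fold of 3.30. Neither was called in a second list.

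Joining peaks of different lists that had 1 bp or more in common left 10 sites. Of these, 2 were in both 1,25D lists and no EtOH list, 1 was in both 1,25D lists and 1 EtOH list, 4 were in a single 1,25D list and 3 in a single EtOH list. Over all 50849 sites of the part covered by 5 lists, 2.37% were in both 1,25D lists and no EtOH list, 1.08% in both and 1 EtOH list, and 91.8% in a single list (22.3% in a 1,25D list and 69.5% in an EtOH list). Sites in both 1,25D lists made up 5.4% of all sites and 3 of the 10 here, and 43.9% of them had no EtOH call, against 2 of the 3 here. On chromosome 20 alone, 81 of 775 sites (10.5%) were in both 1,25D lists, and 42 (5.42%) were in both and no EtOH list. None of the 10 sites was in all 5 lists, against 1.2% of all sites, so a ranking among sites called everywhere gave no value here. The count of hormone-only sites was 3 without EtOH replicate 2, 3 without 1,25D replicate 3 and 5 without 1,25D replicate 1, where a single 1,25D list has to call a site. When weaker peaks than a fold of 5 were dropped it was 1, the site at 40.4 kb. This site has a peak in EtOH replicate 2 with a fold of 2.75, which that limit dropped. The sites at 70.0 and 76.1 kb no longer counted, as each had a fold below 5 in 1 of the 2 1,25D lists.

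The site at 40.4 kb had a fold of 9.02 in 1,25D replicate 1, 19.2 in 1,25D replicate 3 and 2.75 in EtOH replicate 2, and was not listed in EtOH replicates 1 and 3. Its mean 1,25D fold was 14.1 ± 7.23 (SD, n = 2). The authors' p-values at this site were 8.79e-16, 1.37e-42 and 0.00123. Among the peaks of chromosome 20 it ranked 15 of 187 by fold in 1,25D replicate 1 and 6 of 188 in 1,25D replicate 3, but 318 of 367 in EtOH replicate 2. These lists differ in length and in the weakest peak they hold, so the ranks describe each list and do not measure a difference between treatments.

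The peaks of the 2 hormone libraries coincided. The peak of replicate 1 was 512 bp long and lay wholly within the 575 bp peak of replicate 3, with 21.5 bp between their centres. The EtOH peak was 148 bp long, and its centre lay 120.5 bp from that of replicate 3. In the part covered by 5 lists this was the shortest length in EtOH replicate 2, and 60.2% of its peaks there had it. EtOH replicate 1 listed peaks only up to a p of 0.00431 and EtOH replicate 3 up to 0.0099. A missing peak there says that none passed those limits.

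Sites of similar strength were usually called in more EtOH lists. Of 344 sites with a geometric mean 1,25D fold of 10 to 20 (13.2 at 40.4 kb), 59.3% were in all 3 EtOH lists, 18% in 2, 15.4% in 1 and 7.27% in none. EtOH replicate 2 called 75.6% of them, counted whether or not another EtOH list did. The site upstream of CD93 was therefore among the 22.7% of such sites that at most 1 EtOH list called.

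**Figure D2:**
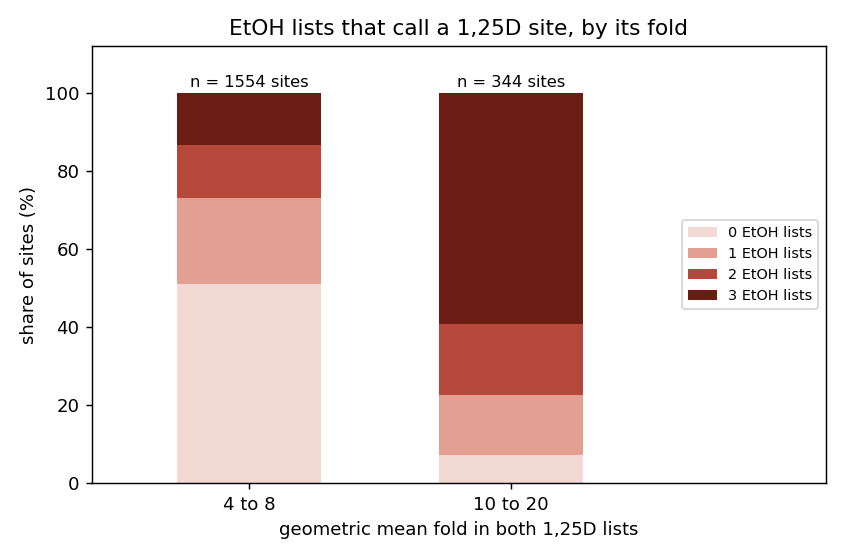
Share of sites called in both 1,25D lists (y axis, %) by the number of EtOH lists that also call them, for sites with a geometric mean 1,25D fold of 4 to 8 and of 10 to 20 (x axis). The site at 40.4 kb, in 1 EtOH list, belongs to the right bar, where 59.3% were in all 3, and the sites at 70.0 and 76.1 kb, in none, belong to the left bar, where 51% were in none.

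The site at 70.0 kb had a fold of 3.25 in 1,25D replicate 1 and 9.16 in 1,25D replicate 3, with no peak in any EtOH list. Its mean fold was 6.21 ± 4.18 (SD, n = 2), and its p-values were 9.70e-05 and 6.06e-17. It ranked 152 of 187 on chromosome 20 in replicate 1 and 20 of 188 in replicate 3, so the 2 hormone libraries differed on how strong it was. They did not differ on where it was, since the 510 bp peak of replicate 3 lay wholly within the 587 bp peak of replicate 1. A low fold over so long a peak was rare in replicate 1: of 316 peaks of that list at least as long, 2 (0.633%) had a lower fold. In replicate 3, 47.3% of the 783 peaks at least as long as its own had a lower fold.

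The site at 76.1 kb was the weakest of the 3, with a fold of 5.05 in 1,25D replicate 1 and 4.05 in 1,25D replicate 3 (4.55 ± 0.712, SD, n = 2) and no EtOH peak. Its p-values were 6.57e-09 and 1.36e-06. The peaks were 268 and 221 bp long and shared 216 bp. In replicate 1 it was stronger than the site at 70.0 kb, and in replicate 3 it was weaker, so the order of the 2 outer sites was not the same in both libraries. Sites of this strength were often without an EtOH call: of 1554 sites with a geometric mean 1,25D fold of 4 to 8, 51% were in no EtOH list, 22.2% in 1 and 13.4% in all 3.

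At the sites at 40.4 and 70.0 kb replicate 3 exceeded replicate 1 by more than at most other sites. The ratio of the fold in replicate 3 to that in replicate 1 was 2.13 at 40.4 kb, 2.82 at 70.0 kb and 0.801 at 76.1 kb. Over the 2745 sites called in both lists the median ratio was 1.05 (quartiles 0.864 and 1.29), and 2.11% had a ratio of 2 or more, as did 1.45% of the 344 sites with a geometric mean fold of 10 to 20. The ratio at 40.4 kb was higher than at 98.8% of these sites and that at 70.0 kb higher than at 99.8%. On chromosome 20, 5 of 81 such sites (6.17%) had a ratio of 2 or more, 2 of them in this window. The lists were processed separately, so these ratios describe the lists and were not tested. Within each list the ranks among the 2745 sites were 501 and 124 at 40.4 kb, 2546 and 609 at 70.0 kb, and 1454 and 2154 at 76.1 kb, for replicates 1 and 3.

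**Figure D3:**
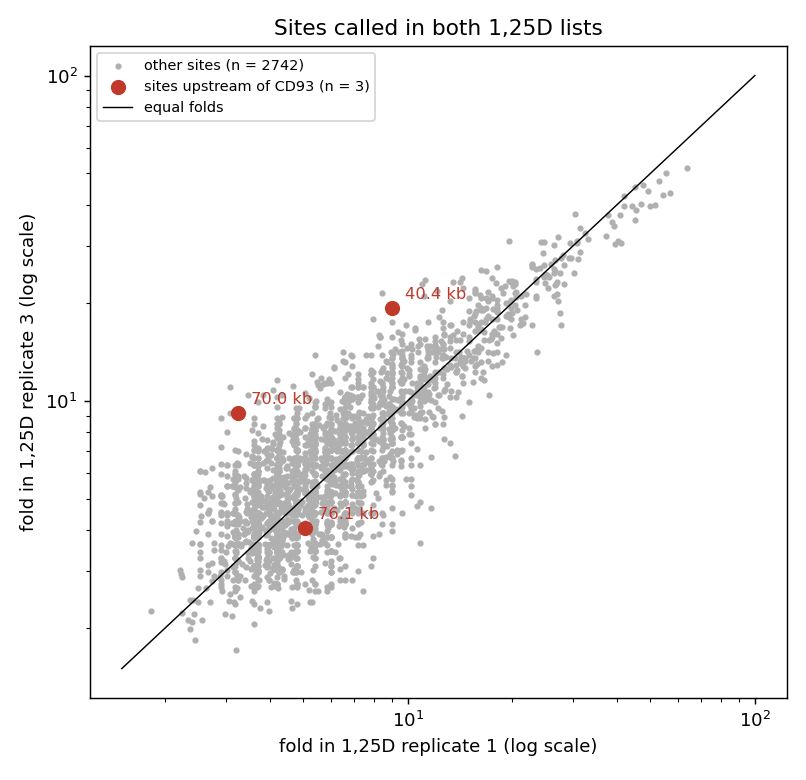
Fold enrichment in 1,25D replicate 1 (x axis) and 1,25D replicate 3 (y axis), both on log scales, for the 2745 sites called in both lists, with the 3 sites upstream of CD93 labelled by their distance from its start. The sites at 40.4 and 70.0 kb lie at the upper edge of the cloud (ratios 2.13 and 2.82), and the site at 76.1 kb lies just below the line of equal folds.

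The 3 sites formed a compact group, 36.2 kb from the first to the last, with 29.6 kb between the centres of the first pair and 6.18 kb between those of the second. Of the 2745 sites in both 1,25D lists, 6.3% lay in a run of 3 such sites that was no longer. Windows of equal length held 3 or more such sites in 2.23% of cases, and 2 or more hormone-only sites in 2.55%, while 27.4% held at least 1 site of both 1,25D lists. A total of 55 of the 7071 windows held 4 or more.

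**Figure D4:**
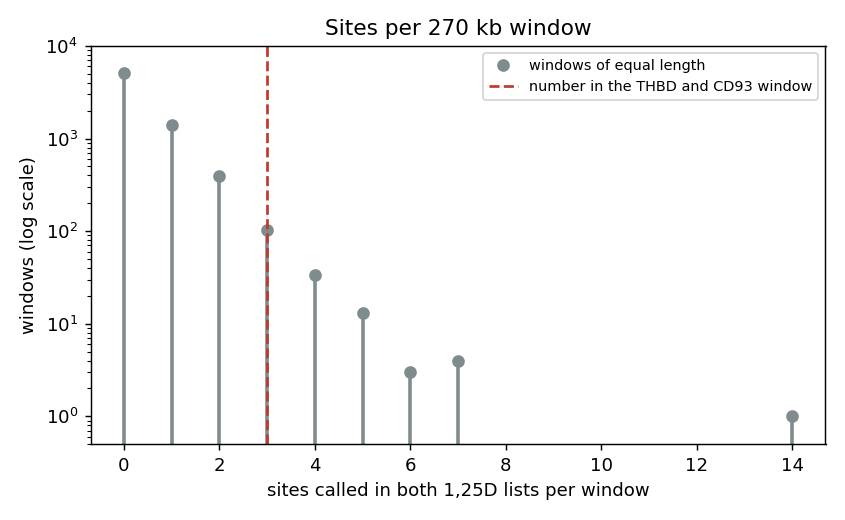
Number of windows (y axis, log scale) by the number of sites called in both 1,25D lists (x axis), for 7071 windows as long as the one around THBD and CD93, which held 3 (dashed line). Most windows held none, 103 held 3 and the densest held 14.

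The 4 sites called in a single 1,25D list were weak, with folds of 3.37 to 3.66. Of these, 2 stood beside a stronger peak of 1,25D replicate 3: the peak at 23106355 to 23106549 ended 499 bp before the peak at 40.4 kb, and the peak at 23137244 to 23137386 began 79 bp after the one at 70.0 kb. In that list 10.9% of peaks lay within 1 kb of another, a share that counts both the weaker and the stronger peak of such a pair. The other single-list 1,25D sites were the one below THBD described above and one of replicate 3 at 23009974 to 23010116, 16.2 kb from the downstream end of THBD. The single-list EtOH sites had folds of 2.33 to 3.30 and lay at 22915832 to 22915979 (replicate 1) and at 23000148 to 23000296 and between the genes (replicate 2). All 3 had the shortest length that their list held in the part covered by 5 lists. So had the single-list 1,25D sites, except the one at 23106355 to 23106549. In that part 41.7% and 24.2% of the peaks of 1,25D replicates 1 and 3 had the shortest length of their list. The shares were 52.7% and 60.2% in EtOH replicates 1 and 2.

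Beyond the window, the next peak on the CD93 side was at the same place in every list, at 23205962 to 23206661 in 1,25D replicate 3, 36.0 kb past the edge. Its fold was 16.2 and 20.7 in 1,25D replicates 1 and 3, and 4.76, 4.84 and 5.44 in EtOH replicates 1 to 3. On the other side the next peak was 18.4 kb below the edge in EtOH replicate 2, with a fold of 3.89. It was at least 143 kb below the edge in the other 4 lists. That of 1,25D replicate 1, at 22756610 to 22756757 with a fold of 3.78, overlapped none of the others. The others overlapped each other, with folds of 9.57 in 1,25D replicate 3, and 5.12 and 6.34 in EtOH replicates 1 and 3. Only the nearest peak of each list was taken, so the fold of 3.78 is not for the place that the others share. The outer peak on the CD93 side had a higher fold than the site at 40.4 kb in both 1,25D lists. The folds were 16.2 and 9.02 in replicate 1, and 20.7 and 19.2 in replicate 3. In EtOH replicates 1 and 3 that outer peak was listed and the site at 40.4 kb was not.

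Sites elsewhere with the pattern of the site at 40.4 kb were sought among the 256 others called in the same 3 lists, by the mean absolute difference of log2 fold over those lists. The nearest was on chromosome 4 at 8171706 to 8172233, at 0.15, with folds of 9.19, 14.5 and 2.75 in 1,25D replicates 1 and 3 and EtOH replicate 2. Next came 2 sites of chromosome 1, the one from 175178389 to 175179194 (0.22) and the one from 28190593 to 28191214 (0.34). Between these in likeness were a site of chromosome 16, from 67346571 to 67347022 (0.32), and one of chromosome 11, from 36735117 to 36735563 (0.33). Their folds were 8.49 to 12.6 in 1,25D replicate 1 and 12.6 to 14.9 in 1,25D replicate 3, so none reached the 19.2 of the site upstream of CD93 in replicate 3.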

How the data were processed

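The submitters' processing notes name Bowtie 1.1 for alignment, hg19 as the build and MACS2 for peak calling. Settings and any use of the input were not stated there. Each list is of 1 library and gives each peak's position, a fold enrichment, which is a ratio over background deposited by the authors, and a p-value from the authors' peak caller (column names per the file headers). Depth is unknown. Whether starts count from 0 is not stated, so positions are as listed.

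Gene positions were those given with the window, and their strand is background knowledge. Incomplete last lines were dropped. Peaks sharing at least 1 bp across the 5 lists were merged, keeping each list's highest fold. Peak numbers were compared by a two-sided exact permutation test of means over 10 assignments (Python 3.11.15). Windows of equal length were laid along each chromosome. Merging was tested on simulated data. Named sites were those in at least 2 lists, with a fold of 5 or more, or at the genes, and the 5 likest sites elsewhere. The members and lists were chosen with earlier results of these data known. No hg19 sequence or annotation was used, so motifs, and the planned genes of the protein C pathway and of the lectin group, were not analysed here. Columns of samples outside the series: 0.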

Additional observations from a re-analysis of the deposited data

How the results depend on the processing

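The excess of peaks after 1,25D kept its direction in the alternative runs over the whole window. It was 2.67 to 4.67 peaks with 1 library left out and 4 with 1 highest p (0.00431) for all lists. It was 5 with the 8620 strongest peaks of each list and 4.5 without both replicates 1, a setting chosen after seeing the data. Within 10 kb of the gene pair the means differed by 0.167, but each treatment had 1 peak there, so that run gives no direction. At a fold of 5 or more the difference was 2 with any library left out, 2.5 at a fold of 4 and 0.5 at 10. Hormone-only sites numbered 2 to 5 with 1 library left out, and 2 with 1 highest p, 50% overlap or joining within 200 bp. At a fold of 5 or more there was 1, the site at 40.4 kb, whose EtOH peak was below that fold. Neither hormone-only site of the main run was left at that fold. No site of the window was in all lists under any alternative run. With a replicate block on numbers 1 and 3 the differences were 4.5 and 2 peaks (exact permutation p = 0.5, the smallest 2 pairs allow) and 3 hormone-only sites. The numbers are not shown to pair the libraries: over 612 sites in all 5 lists, deviations of same-numbered libraries correlated at 0.11 and 0.03. The share of equal windows with more peaks in both 1,25D lists was 3.80% with windows shifted by 0.5 of their length. With 2 against 3 libraries no test could pass 0.05, and without read counts a missing peak cannot be given a limit.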
